A study of Mus musculus with 16 samples.

Results

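The enzymes of triglyceride synthesis were described here as 10 genes, chosen by name as members of the GPAT, AGPAT, lipin and DGAT families, of the 20295 genes in the count table. All 10 passed the filter on low counts, which kept 12786 genes for testing. The samples were immortalized mouse brown adipocytes at day 7 of differentiation, a cell line grown in culture, and gene expression was measured by RNA sequencing as whole-number read counts. The design blocked either step of fatty acid use, activation or oxidation, to see if lipolysis still changed gene expression. SR-3420, a ligand of ABHD5 that sets off lipolysis by adipose triglyceride lipase, was given for 3 h at 10 µM according to the labels, and the study's text gives a higher dose. Before it, cells had 1 h with triacsin C (spelled triascin C in the labels) at 5 µM, an inhibitor of long-chain acyl-CoA synthetases, with etomoxir at 50 µM, an inhibitor of carnitine palmitoyltransferase, or with neither. The 6 groups were vehicle (replicates 2 and 3), SR-3420 (replicates 1 and 3), triacsin C (TC, 3 samples), triacsin C with SR-3420 (TC+SR-3420, 3 samples), etomoxir (ETO, 3 samples) and etomoxir with SR-3420 (ETO+SR-3420, 3 samples). The study's text describes its RNA sequencing replicates as independent biological experiments, while the labels do not say which samples came from separate cultures or shared an experiment. The p-values measure only the spread between these 16 samples.

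Triglyceride is built in the glycerol phosphate pathway. A glycerol-3-phosphate acyltransferase (GPAT) adds a fatty acyl-CoA to glycerol 3-phosphate, an acylglycerolphosphate acyltransferase (AGPAT) adds another to make phosphatidate, a lipin removes the phosphate to leave diacylglycerol, and a diacylglycerol acyltransferase (DGAT) completes the molecule. In brown adipocytes the pathway fills lipid droplets and takes back fatty acids that lipolysis has set free, and each acylation step uses acyl-CoA, the product of the enzymes that triacsin C inhibits.

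Library totals ran from 9452861 counts in TC replicate 1 to 25670624 in ETO+SR-3420 replicate 1. The cell type label was checked against 12 brown adipocyte markers. Fabp4, a fatty acid carrier of adipocytes, was the most abundant of them in all 16 samples, at 3030 to 9220 CPM, which are counts scaled to library size. Ucp1, which defines thermogenic fat, was near the floor, at 0.461 to 3.66 CPM. Macrophage or leukocyte markers summed to 4.33 to 18.5 CPM over 6 genes, with Cd68 the most abundant. Endothelial markers summed to 0.86 to 3.58 CPM over 4 genes, led by Kdr, and skeletal muscle markers to 2.65 to 12.9 CPM over 5 genes, led by Acta1 or Myod1. Of the last 3 lists 2, 1 and 2 genes were tested. Cd68 was called higher in TC against vehicle, at a log2 fold change of 1.92 ± 0.27 (edgeR adjusted p = 0.000366, all 3 samples above both), and lower in TC+SR-3420 against TC, at -1.29 ± 0.22 (edgeR adjusted p = 0.000651, all 3 below all 3). In the latter the other tested macrophage gene, Csf1r, was at 0.5 and not called. Without Cd68 the list summed to 1.83, 1.98 and 2.12 CPM in TC and 2.82, 2.36 and 3.1 in TC+SR-3420, the other direction. Kdr was called higher in ETO+SR-3420 against ETO, at 1.28 ± 0.3 (edgeR adjusted p = 0.00681, all 3 above all 3). It was called higher also in TC+SR-3420 against TC, at 0.96 ± 0.31 (edgeR adjusted p = 0.0246, all 3 above all 3), a call kept in 2 of the 6 fits without 1 sample. No muscle gene was called.

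Samples of the same group differed along a trend with the GC content of genes. Over 11105 genes, which are not independent replicates, the deviation of a sample from its group mean correlated with GC content at r = -0.62 to r = -0.84 in the 6 samples numbered replicate 3. The other samples had r of 0.51 to 0.81, except TC replicate 1 at r = -0.37 and ETO+SR-3420 replicate 2 at r = -0.2. In vehicle and SR-3420, with 2 samples each, the values of a group mirror each other by construction. The members ran from Agpat9 at 48.0% GC in its longest coding transcript to Agpat1 at 59.0%. Where removing the trends over GC content and length moved a member's value given below by more than 1.5 times or turned its sign, the value without the trends is given as well. For that removal the trends were fitted to each sample's deviation from the mean over all 16 samples. Differences between groups that follow GC content or length were therefore removed too, and the 2 parts were not separated. Within all 6 groups Agpat1 was lowest in the sample numbered replicate 3, and within all 6 groups Agpat9 was highest there. Whether the trend accounts for those differences was not tested.

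Between genes, levels were compared as CPM per kilobase of counted length in the vehicle samples. Agpat2 was the most abundant member, at 461 and 290 CPM per kilobase. Dgat1 had 286 and 207, and Dgat2 had 255 and 183. These DGAT ranges overlapped each other. Gpam stood at 170 and 141, and Agpat3 at 175 and 122. Lpin1 had 81.1 and 65.4, Agpat9 had 67 and 75.3, and Agpat1 had 78.2 and 54.8. Those members overlapped in level, and the lowest were Lpin2 at 7.8 and 8.93 and Lpin3 at 2.51 and 2.97.

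**Figure D1:**
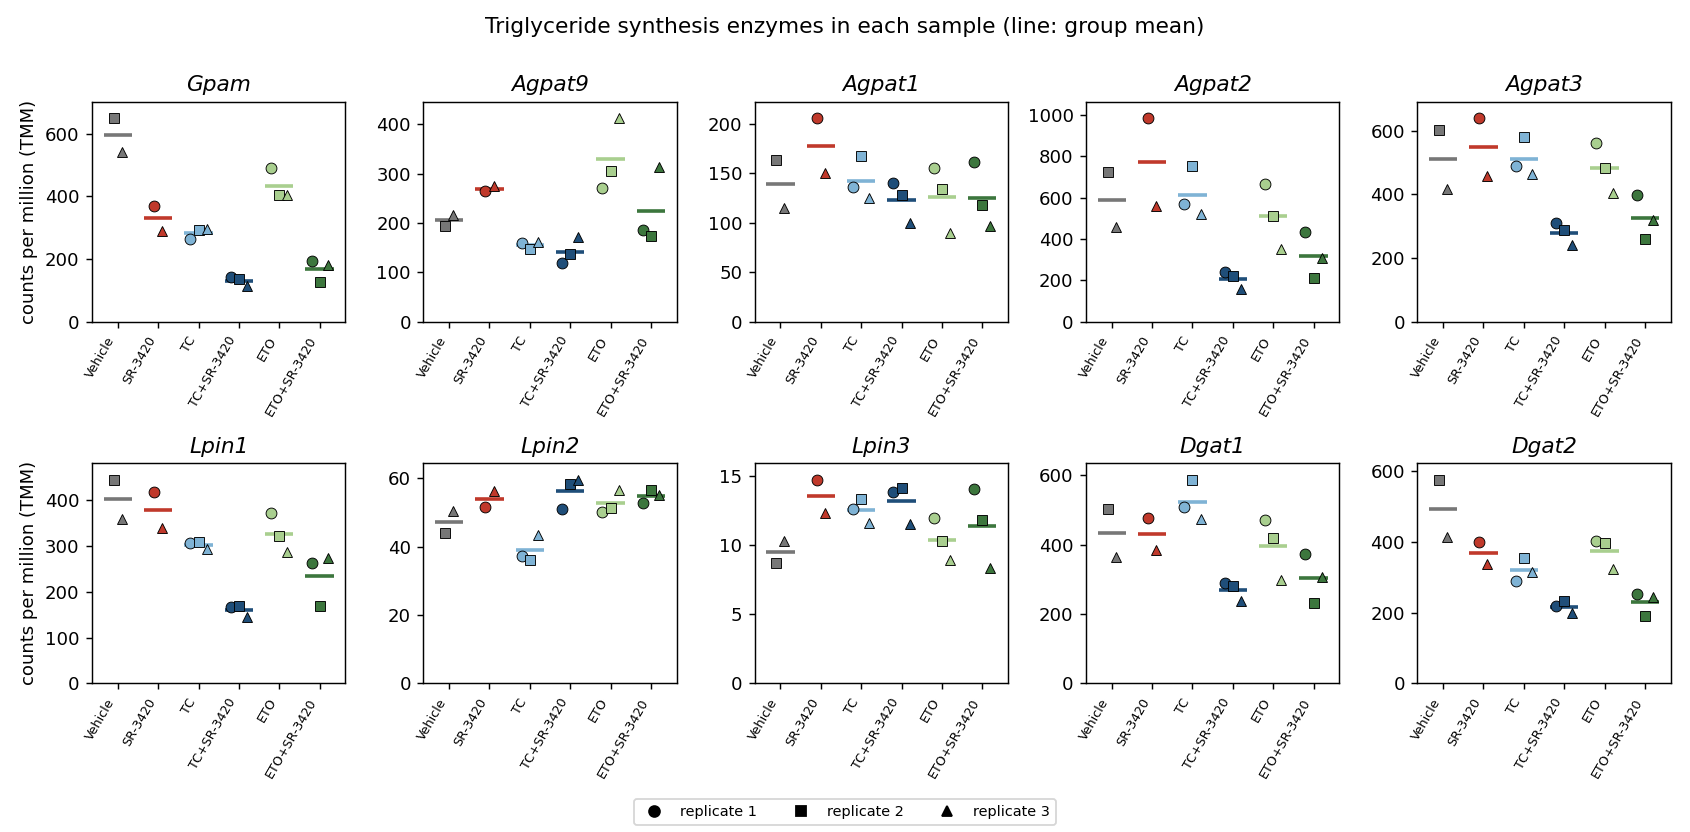
CPM of the 10 members in each of the 16 samples, with the 6 groups on the horizontal axis, CPM on the vertical axis, a symbol for each replicate number and a line at each group mean. Gpam falls from a mean of 596 CPM in vehicle to 131 CPM in TC+SR-3420, and Agpat1, Lpin2 and Lpin3 span less than the other members.

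Gpam encodes the mitochondrial glycerol-3-phosphate acyltransferase and lies on chromosome 19 of the mm9 build, chr19:55144224-55173937, minus strand, with 23 exons in its longest coding transcript. The table holds 2 promoters of Gpam, and both are shown because Gpam was lower with SR-3420 in every arm. Placed on mm9 by exact sequence, the start of promoter 2 lies 30 bases upstream of the start of the counted gene, and that of promoter 1 lies 27791 bases upstream of it. Promoter 2 held no match to a motif searched for, and promoter 1 held the letters of an ATF4 element, in capitals, the first base at -22. Which start these cells used was not tested. The sequences are from RefSeq, build GRCm38.p6, minus strand, chr19:55127189-55127488 for promoter 1 and chr19:55099428-55099727 for promoter 2, each 250 bases before to 50 after a start.
Gpam promoter 1: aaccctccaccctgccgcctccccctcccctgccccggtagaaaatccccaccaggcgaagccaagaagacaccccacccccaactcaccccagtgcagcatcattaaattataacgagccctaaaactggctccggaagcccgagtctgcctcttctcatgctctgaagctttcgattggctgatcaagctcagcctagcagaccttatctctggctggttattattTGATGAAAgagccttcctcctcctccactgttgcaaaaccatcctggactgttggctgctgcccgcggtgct
Gpam promoter 2: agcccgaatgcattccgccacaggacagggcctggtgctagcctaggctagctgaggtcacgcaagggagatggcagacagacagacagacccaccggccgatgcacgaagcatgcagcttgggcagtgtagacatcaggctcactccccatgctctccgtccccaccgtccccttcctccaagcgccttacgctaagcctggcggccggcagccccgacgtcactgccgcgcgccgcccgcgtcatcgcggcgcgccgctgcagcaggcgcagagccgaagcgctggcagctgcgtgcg
Gpam had 650 and 542 CPM in vehicle, 369 and 290 in SR-3420, 263, 293 and 294 in TC, 142, 135 and 115 in TC+SR-3420, 490, 405 and 404 in ETO, and 194, 127 and 181 in ETO+SR-3420. Vehicle was above every other sample, ETO came next, SR-3420 overlapped TC, and the lowest values were in ETO+SR-3420 and TC+SR-3420, which overlapped. In bulk samples such as these, fewer cells of a type and less RNA per cell cannot be told apart. Genes were called at an adjusted p under 0.05 in edgeR (quasi-likelihood test, p adjusted by Benjamini and Hochberg's method across the 12786 genes). Gpam fell with SR-3420 alone, at a log2 fold change of -0.85 ± 0.21 (SE, edgeR adjusted p = 0.0235), with both treated samples below both vehicle samples. That call was lost when any of the 4 samples was left out, with edgeR adjusted p = 0.147 without vehicle replicate 2, 0.0614 without vehicle replicate 3, 0.0531 without SR-3420 replicate 1 and 0.143 without SR-3420 replicate 3. It was lost also in a model of only these groups, at edgeR adjusted p = 0.204. With triacsin C present SR-3420 lowered it by a log2 fold change of -1.12 ± 0.17 (edgeR adjusted p = 0.000225), and with etomoxir present by -1.37 ± 0.17 (edgeR adjusted p = 0.000113), in each case with 3 samples below all 3 of the inhibitor alone. The difference between the responses with and without triacsin C was -0.26, with a 95% confidence interval of -0.83 to 0.3 (edgeR adjusted p = 0.616), or -0.42 with the trends removed (edgeR adjusted p = 0.401), and that for etomoxir was -0.52, from -1.08 to 0.05 (edgeR adjusted p = 0.988). Triacsin C alone lowered Gpam by -1.07 ± 0.18 on the log2 scale against vehicle (edgeR adjusted p = 0.00175, all 3 samples below both vehicle samples), and TC+SR-3420 was -1.34 ± 0.18 below SR-3420 (edgeR adjusted p = 0.00222, all 3 below both). Etomoxir alone gave -0.46 ± 0.18, which did not pass (edgeR adjusted p = 1), with all 3 samples below both vehicle samples.

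Agpat9, now named Gpat3, encodes a glycerol-3-phosphate acyltransferase of the endoplasmic reticulum, at chr5:101275248-101328121 of mm9, plus strand. It had 193 and 217 CPM in vehicle, 265 and 274 in SR-3420, 159, 147 and 161 in TC, 118, 137 and 171 in TC+SR-3420, 270, 306 and 413 in ETO, and 186, 173 and 314 in ETO+SR-3420. Its highest values were in ETO and its lowest in TC+SR-3420 and TC, which overlapped, and ETO overlapped SR-3420 and ETO+SR-3420. SR-3420 alone gave a log2 fold change of 0.4 ± 0.27 (edgeR adjusted p = 0.439, both samples above both of vehicle). With triacsin C the change was -0.13 ± 0.22 (edgeR adjusted p = 0.677, with overlapping samples), or -0.21 with the trends removed (edgeR adjusted p = 0.312), and with etomoxir -0.56 ± 0.22 (edgeR adjusted p = 0.0837, with overlapping samples). Without ETO+SR-3420 replicate 3, the sample at 314 CPM, the change with etomoxir was -0.88 and passed (edgeR adjusted p = 0.00523). With all samples and the trends over GC content and length removed it was -0.58 and passed also (edgeR adjusted p = 0.0125). The difference between the responses with and without etomoxir was -0.95, with a 95% confidence interval of -1.71 to -0.2 (edgeR adjusted p = 0.988). TC+SR-3420 was below SR-3420 by -0.92 ± 0.24 (edgeR adjusted p = 0.0489, all 3 samples below both). This last call was lost without SR-3420 replicate 1 (edgeR adjusted p = 0.269) or replicate 3 (0.125) and without TC+SR-3420 replicate 1 (0.136), 2 (0.158) or 3 (0.067). It was lost also with DESeq2's size factors (edgeR adjusted p = 0.0554), with no filter on low counts (0.0686) and in a model of only these groups (0.0893). Etomoxir alone gave 0.69 ± 0.25 against vehicle (edgeR adjusted p = 1), with all 3 samples above both of vehicle.

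Agpat2 encodes the AGPAT whose loss in people causes congenital generalized lipodystrophy. It lies at chr2:26448577-26459937 of mm9, minus strand, with 6 exons in its longest coding transcript. Agpat2 had 725 and 456 CPM in vehicle, 987 and 559 in SR-3420, 568, 754 and 523 in TC, 240, 221 and 159 in TC+SR-3420, 667, 513 and 354 in ETO, and 435, 210 and 310 in ETO+SR-3420. TC+SR-3420 was below every sample of vehicle, SR-3420, TC and ETO and overlapped ETO+SR-3420, and vehicle, SR-3420, TC and ETO overlapped one another. SR-3420 alone gave a log2 fold change of 0.39 ± 0.39 (edgeR adjusted p = 0.62, with overlapping samples), and 0.22 with the trends removed (edgeR adjusted p = 0.464). With triacsin C it fell by -1.57 ± 0.32 on the log2 scale (edgeR adjusted p = 0.002, all 3 samples below all 3 of TC). With etomoxir the change was -0.68 ± 0.32 (edgeR adjusted p = 0.134, with overlapping samples). Once the trends over GC content and length were removed, that value was -0.6 and passed (edgeR adjusted p = 0.00846). The response with triacsin C differed from that without inhibitor by -1.96 ± 0.5, with a 95% confidence interval of -3.05 to -0.88, and did not pass (edgeR adjusted p = 0.0587). With the trends removed the same difference was -1.46 and passed (edgeR adjusted p = 0.00393), and DESeq2 called it at -1.92 (DESeq2 adjusted p = 0.00714). TC+SR-3420 was below SR-3420 by -1.9 ± 0.35 (edgeR adjusted p = 0.00897, all 3 samples below both), a call lost without SR-3420 replicate 1 (-1.43, edgeR adjusted p = 0.17) and in a model of only these groups (edgeR adjusted p = 0.0505).

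Agpat3, another AGPAT, lies at chr10:77734308-77814445 of mm9, minus strand. It had 602 and 418 CPM in vehicle, 640 and 458 in SR-3420, 489, 579 and 465 in TC, 310, 287 and 242 in TC+SR-3420, 562, 484 and 404 in ETO, and 398, 258 and 320 in ETO+SR-3420. ETO+SR-3420 and TC+SR-3420 overlapped, and both were below every sample of the other 4 groups. With triacsin C, SR-3420 lowered Agpat3 by -0.87 ± 0.2 on the log2 scale (edgeR adjusted p = 0.00475, all 3 samples below all 3 of TC). With etomoxir the change was -0.57 ± 0.2 (edgeR adjusted p = 0.0562), also with all 3 samples below all 3 of ETO. It passed without ETO replicate 3 (-0.68, edgeR adjusted p = 0.0363), without ETO+SR-3420 replicate 1 (-0.74, edgeR adjusted p = 0.0268), in DESeq2 (DESeq2 adjusted p = 0.035) and with the trends over GC content and length removed (-0.56, edgeR adjusted p = 0.00112). SR-3420 alone gave 0.11 ± 0.25 (edgeR adjusted p = 0.853, with overlapping samples), and -0.01 with the trends removed (edgeR adjusted p = 0.953). Between the triacsin C arm and the arm without inhibitor the response differed by -0.98 ± 0.32, from -1.67 to -0.28 (edgeR adjusted p = 0.135), and with the trends removed by -0.77 (edgeR adjusted p = 0.0169). TC+SR-3420 was below SR-3420 by -0.97 ± 0.22 (edgeR adjusted p = 0.0252, all 3 samples below both). That call was lost without SR-3420 replicate 1 (-0.71, edgeR adjusted p = 0.357) or TC+SR-3420 replicate 1 (0.0515), 2 (0.0613) or 3 (0.109), and in a model of only these groups (0.0917).

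Agpat1 encodes a broadly expressed AGPAT and lies at chr17:34742806-34750394 of mm9, plus strand, where it overlaps Egfl8 on the other strand by 100 bases. The sources used here do not say whether counting used strand, so reads from the overlap cannot be told apart. Agpat1 ranged from 89.5 CPM in ETO replicate 3 to 206 CPM in SR-3420 replicate 1, and every group overlapped its neighbours in the order of group means. Its group means spanned 0.53 on the log2 scale, from 178 CPM in SR-3420 to 123 CPM in TC+SR-3420. No comparison called Agpat1 in edgeR, with log2 fold changes from SR-3420 of 0.36 alone, -0.22 with triacsin C and -0.01 with etomoxir (edgeR adjusted p = 0.542, 0.509 and 0.986, with overlapping samples in all 3). With the trends removed these were 0.16, 0.05 and 0.01 (edgeR adjusted p = 0.142, 0.527 and 0.939), so the sign turned in both inhibitor arms. TC against vehicle gave 0.04, and -0.19 with the trends over GC content and length removed (edgeR adjusted p = 0.955 and 0.0557, with overlapping samples). TC+SR-3420 against SR-3420 gave -0.53 (edgeR adjusted p = 0.3, all 3 samples below both), and -0.3 once the trends over GC content and length were removed, which passed (edgeR adjusted p = 0.0075).

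Lpin1 encodes lipin 1, a phosphatidate phosphatase that also acts in the nucleus as a coregulator of transcription, and lies at chr12:16542475-16596576 of mm9, minus strand. It had 445 and 359 CPM in vehicle, 419 and 339 in SR-3420, 306, 309 and 294 in TC, 166, 170 and 144 in TC+SR-3420, 372, 322 and 288 in ETO, and 263, 170 and 273 in ETO+SR-3420. TC+SR-3420 and ETO+SR-3420 overlapped at 170 CPM and were below all samples of the other 4 groups. With triacsin C, SR-3420 lowered Lpin1 by -0.92 ± 0.18 on the log2 scale (edgeR adjusted p = 0.00124, all 3 samples below all 3 of TC). With etomoxir the change was -0.48 ± 0.17 (edgeR adjusted p = 0.0617, all 3 samples below all 3 of ETO). It passed without ETO replicate 3 (-0.56, edgeR adjusted p = 0.0467), without ETO+SR-3420 replicate 3 (-0.6, edgeR adjusted p = 0.0377), in DESeq2 (DESeq2 adjusted p = 0.0421) and with the trends over GC content and length removed (-0.56, edgeR adjusted p = 0.0116). SR-3420 alone gave -0.08 ± 0.21 (edgeR adjusted p = 0.867, with overlapping samples), and -0.14 with the trends removed (edgeR adjusted p = 0.65). For Lpin1 the response differed between the triacsin C arm and the arm without inhibitor by -0.84 ± 0.28, from -1.43 to -0.24 (edgeR adjusted p = 0.135), and with the trends removed by -1.05 (edgeR adjusted p = 0.0208). TC+SR-3420 was below SR-3420 by -1.24 ± 0.19 (edgeR adjusted p = 0.00355, all 3 samples below both), a call lost without SR-3420 replicate 1 (-1.08, edgeR adjusted p = 0.0711).

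Lpin2 encodes lipin 2 and lies at chr17:71533318-71599158 of mm9, plus strand, with 20 exons in its longest coding transcript. In the edgeR model of all 16 samples, with the trends in place, it was the only member called higher in any comparison. Promoters of it are therefore shown beside those of Gpam. The table holds 3, of which promoter 2 starts where the counted gene does and held no match. Promoter 1 starts 446 bases upstream of it and held an E-box, in capitals, the first base at -9, and promoter 3, inside the gene, is not shown. The sequences are from RefSeq, build GRCm38.p6, plus strand, chr17:71183282-71183581 for promoter 1 and chr17:71183728-71184027 for promoter 2.
Lpin2 promoter 1: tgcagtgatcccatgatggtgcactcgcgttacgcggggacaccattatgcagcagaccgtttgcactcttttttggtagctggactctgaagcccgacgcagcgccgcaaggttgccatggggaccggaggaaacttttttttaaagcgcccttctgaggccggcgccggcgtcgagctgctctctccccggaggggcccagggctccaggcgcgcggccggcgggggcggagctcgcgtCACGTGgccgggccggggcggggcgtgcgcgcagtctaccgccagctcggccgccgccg
Lpin2 promoter 2: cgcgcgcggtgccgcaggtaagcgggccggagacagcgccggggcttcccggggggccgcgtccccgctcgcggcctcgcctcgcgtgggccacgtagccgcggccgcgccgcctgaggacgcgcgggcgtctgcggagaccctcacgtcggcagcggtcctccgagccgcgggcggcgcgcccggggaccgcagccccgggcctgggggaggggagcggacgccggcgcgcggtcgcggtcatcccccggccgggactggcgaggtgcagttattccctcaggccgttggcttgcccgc
Lpin2 had 44 and 50.4 CPM in vehicle, 51.5 and 56.2 in SR-3420, 37.4, 36.2 and 43.3 in TC, 51.1, 58.4 and 59.6 in TC+SR-3420, 50.2, 51.2 and 56.5 in ETO, and 52.8, 56.7 and 55.1 in ETO+SR-3420. TC was below all other samples, and the other 5 groups overlapped their neighbours. With triacsin C, SR-3420 raised Lpin2 by 0.53 ± 0.11 on the log2 scale (edgeR adjusted p = 0.00283, all 3 samples above all 3 of TC). With the trends over GC content and length removed the change was 0.21 and no longer passed (edgeR adjusted p = 0.0546). SR-3420 gave 0.19 ± 0.14 alone (edgeR adjusted p = 0.478, both samples above both of vehicle) and 0.06 ± 0.11 with etomoxir (edgeR adjusted p = 0.75, with overlapping samples), the latter -0.03 with the trends removed (edgeR adjusted p = 0.773). Its response to SR-3420 differed between the triacsin C arm and the arm without inhibitor by 0.34, from -0.05 to 0.73 (edgeR adjusted p = 0.367), and from that with etomoxir by 0.47, from 0.12 to 0.82 (edgeR adjusted p = 0.188). DESeq2 called the latter at 0.5 (DESeq2 adjusted p = 0.0418). With the trends removed these differences were 0.07 and 0.25, and neither passed (edgeR adjusted p = 0.821 and 0.299).

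Lpin3, the least abundant lipin, lies at chr2:160706406-160731736 of mm9, plus strand. Its counts ran from 107 in ETO replicate 3 to 349 in ETO+SR-3420 replicate 1, and its level from 8.36 to 14.7 CPM. Neighbouring groups overlapped throughout the order of means, from 13.5 CPM in SR-3420 to 9.51 CPM in vehicle. No comparison called it in edgeR, and SR-3420 alone gave 0.51 ± 0.24 on the log2 scale (edgeR adjusted p = 0.233, both samples above both of vehicle), and 0.32 with the trends removed (edgeR adjusted p = 0.202).

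Dgat1 and Dgat2 encode unrelated proteins that catalyse the same last step. Dgat1 lies at chr15:76332445-76342248 of mm9, minus strand, and Dgat2 at chr7:106302173-106331223, minus strand. Dgat1 had 502 and 363 CPM in vehicle, 476 and 385 in SR-3420, 508, 587 and 473 in TC, 289, 281 and 237 in TC+SR-3420, 470, 420 and 298 in ETO, and 374, 233 and 306 in ETO+SR-3420. Its lowest group was TC+SR-3420, which overlapped only ETO+SR-3420. With triacsin C, SR-3420 lowered Dgat1 by -0.96 ± 0.21 on the log2 scale (edgeR adjusted p = 0.00288, all 3 samples below all 3 of TC). Alone it gave -0.01 ± 0.25 (edgeR adjusted p = 0.993) and with etomoxir -0.38 ± 0.21 (edgeR adjusted p = 0.199), both with overlapping samples, and the former was -0.13 with the trends removed (edgeR adjusted p = 0.55). The response with triacsin C differed from that without inhibitor by -0.95 ± 0.33, from -1.65 to -0.25 (edgeR adjusted p = 0.15), and by -0.53 with the trends removed, which did not pass either (edgeR adjusted p = 0.0861). TC+SR-3420 against SR-3420 gave -0.68 ± 0.23 (edgeR adjusted p = 0.116, all 3 samples below both), and -0.48 with the trends over GC content and length removed, which passed (edgeR adjusted p = 0.0168).

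Dgat2 had 575 and 412 CPM in vehicle, 398 and 336 in SR-3420, 290, 354 and 314 in TC, 219, 232 and 198 in TC+SR-3420, 403, 397 and 324 in ETO, and 252, 190 and 244 in ETO+SR-3420. Vehicle was highest, ETO, SR-3420 and TC overlapped, and ETO+SR-3420 and TC+SR-3420 were lowest and overlapped. SR-3420 lowered Dgat2 with etomoxir by -0.71 ± 0.16 on the log2 scale (edgeR adjusted p = 0.00541, all 3 samples below all 3 of ETO). With triacsin C the fall was -0.56 ± 0.16 (edgeR adjusted p = 0.014, all 3 samples below all 3 of TC), and this call was lost without TC replicate 2 (-0.48, edgeR adjusted p = 0.062) or TC+SR-3420 replicate 3 (-0.5, edgeR adjusted p = 0.057). With the trends over GC content and length removed the fall with triacsin C was -0.33 (edgeR adjusted p = 0.0487). SR-3420 alone gave -0.43 ± 0.19 (edgeR adjusted p = 0.219, both samples below both of vehicle), and -0.56 with the trends removed, which passed (edgeR adjusted p = 0.0227). The responses with and without triacsin C differed by -0.13, from -0.68 to 0.41 (edgeR adjusted p = 0.791, and 0.23 on the log2 scale with the trends removed), and those with and without etomoxir by -0.29, from -0.83 to 0.25 (edgeR adjusted p = 0.988), or -0.1 with the trends removed (edgeR adjusted p = 0.93). Triacsin C alone lowered Dgat2 by -0.63 ± 0.18 (edgeR adjusted p = 0.0331, all 3 samples below both of vehicle). That call was lost without vehicle replicate 2 (-0.37, edgeR adjusted p = 0.303), TC replicate 1 (0.114) or TC replicate 3 (0.0952). TC+SR-3420 was below SR-3420 by -0.76 ± 0.18 (edgeR adjusted p = 0.0253, all 3 samples below both). That call was lost without SR-3420 replicate 1 (-0.64, edgeR adjusted p = 0.296), TC+SR-3420 replicate 1 (0.072) or 3 (0.107), and in a model of only these groups (0.0932).

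**Figure D2:**
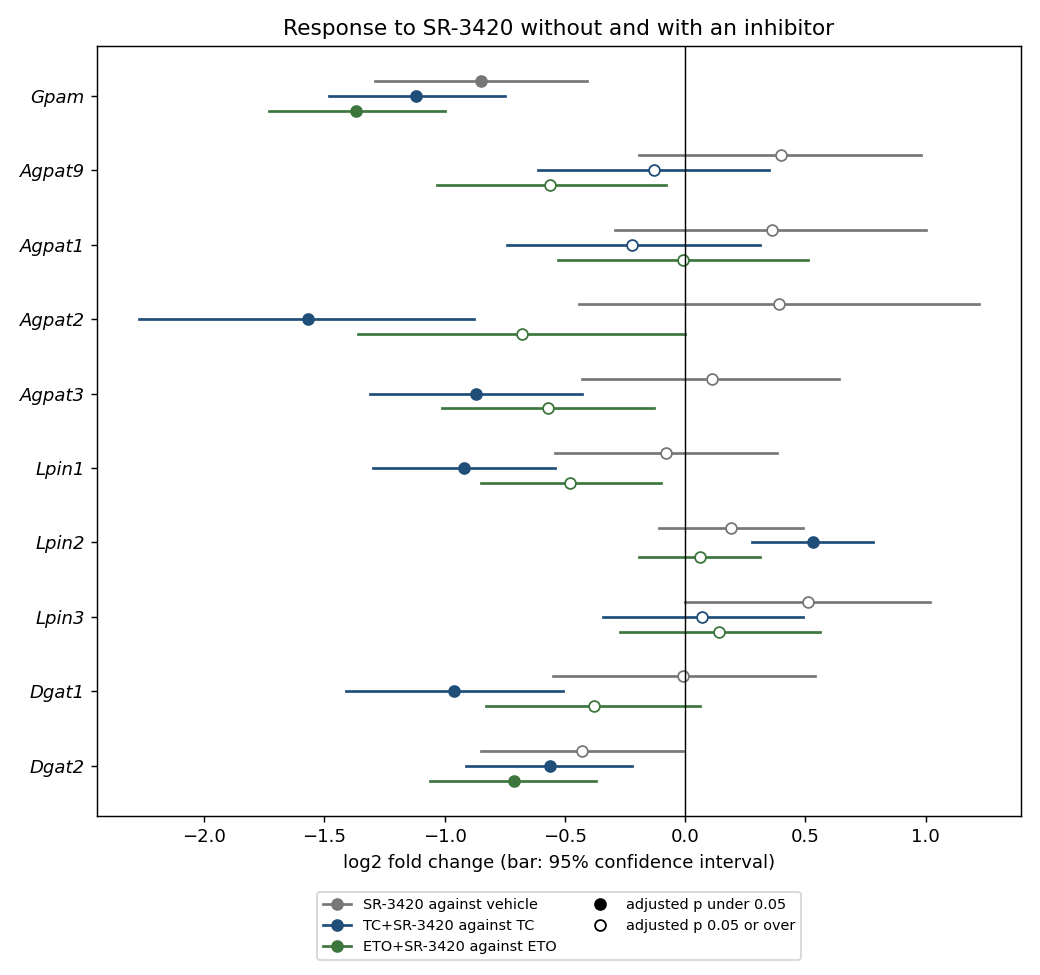
Log2 fold change of each member with SR-3420 against its own control, on the horizontal axis, without inhibitor, with TC and with ETO, with bars for 95% confidence intervals and filled points where the edgeR adjusted p is under 0.05. Gpam lies at -0.85, -1.12 and -1.37, and Agpat2 at 0.39, -1.57 and -0.68.

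**Figure D3:**
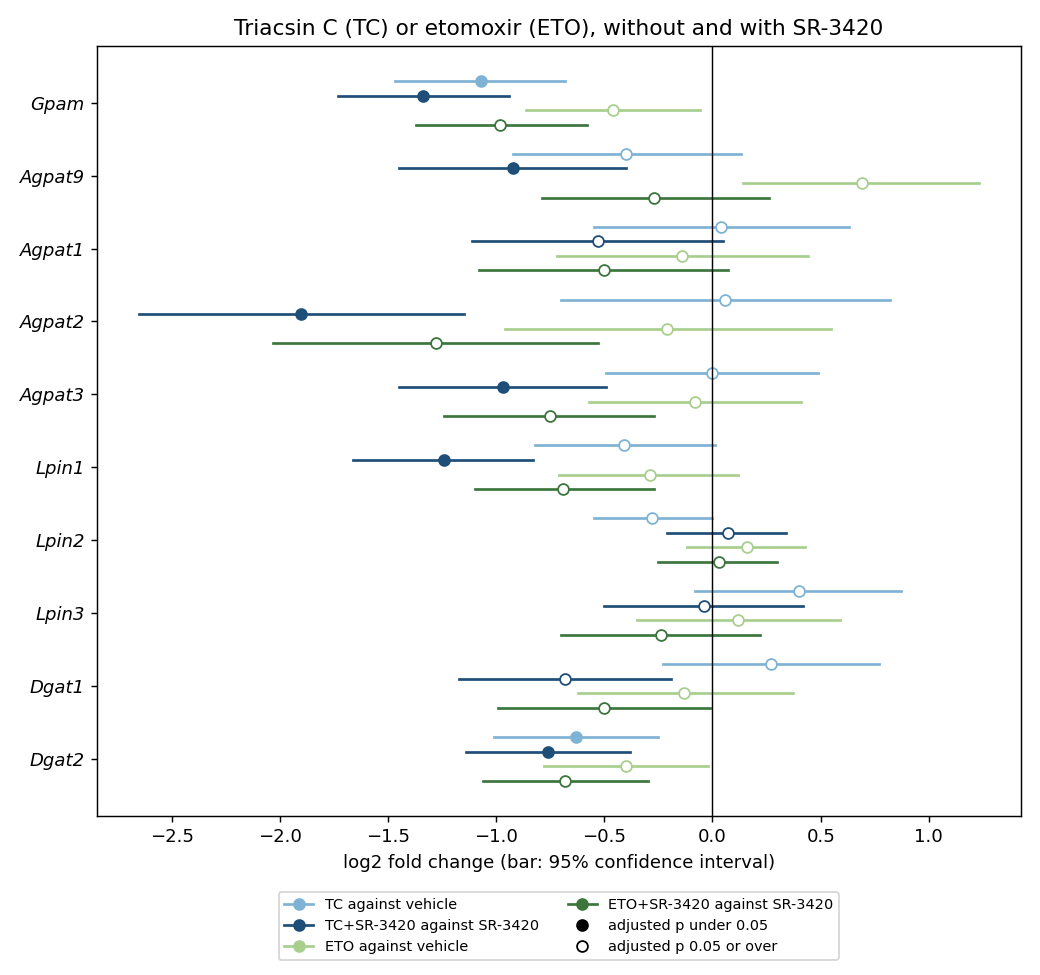
Log2 fold change of each member with an inhibitor against the group without it, on the horizontal axis, with bars for 95% confidence intervals and filled points where the edgeR adjusted p is under 0.05. Gpam lies at -1.07 for TC against vehicle and at -1.34 for TC+SR-3420 against SR-3420.

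Counted over the 10 members, SR-3420 against vehicle called 1 lower (Gpam), where 2.79% of all genes tested were called lower, and none higher, where 4.75% were. The median log2 fold change of the members was 0.15, or 0.07 with the trends over GC content and length removed, beside 0 for all genes tested. TC+SR-3420 against TC called 6 members lower, where 19.7% of all genes were, and 1 higher (Lpin2), where 17.3% were, and the members' median was -0.72 beside 0.02. ETO+SR-3420 against ETO called 2 lower (Gpam and Dgat2), where 12.8% of all genes were, and none higher, where 12.5% were, with a median of -0.52 beside 0.01. Without ETO replicate 3, or without ETO+SR-3420 replicate 3, this count was 4. With the trends over GC content and length removed it was 6. There 44.6% of all genes were called in either direction, beside 25.3% with the trends in place. In both inhibitor arms 8 of the 10 members had a log2 fold change below 0, and with the trends removed 7 did with triacsin C and 8 with etomoxir.

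TC against vehicle called 2 members lower (Gpam and Dgat2), where 6.94% of all genes were, and none higher, where 4.77% were, with a median of -0.14 beside 0.07 for all genes. It called 1 without vehicle replicate 2, TC replicate 1 or TC replicate 3. ETO against vehicle called 0 members in edgeR, where its adjusted p called 0.0235% of all genes in either direction. There were 3 members at an unadjusted p under 0.05, where 2.21% of all genes were (283), and 0 in DESeq2, which called 17 genes. TC+SR-3420 against SR-3420 called 6 lower, where 3.55% of all genes were, and none higher, where 1.02% were, with a median of -0.84 beside 0.02. That count was 1 without SR-3420 replicate 1, and 3 without TC+SR-3420 replicate 1 or 3. ETO+SR-3420 against SR-3420 called 0 members in edgeR, where its adjusted p called 0.00782% of all genes in either direction. There were 6 members at an unadjusted p under 0.05, where 10% of all genes were (1279), and 1 (Gpam) in DESeq2, which called 86 genes. Gpam there had a log2 fold change of -0.98 ± 0.18 (edgeR adjusted p = 0.141, DESeq2 adjusted p = 0.00163, all 3 samples below both). With the trends over GC content and length removed 2 members passed, Gpam at -1.04 and Agpat2 at -0.94 (edgeR adjusted p = 0.0289 for both, all 3 samples below both). In that fit 0.743% of all genes passed. With the replicate number as a block 6 members passed, where 14.4% of all genes did. The labels do not say what that number marks. These comparisons share samples with one another, among them the vehicle, SR-3420, TC and TC+SR-3420 groups.

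Tests of the responses against each other called no member in edgeR. The response with triacsin C against that without inhibitor called 0 members in edgeR, where its adjusted p called 2.51% of all genes (321). It had 4 at an unadjusted p under 0.05, where 16.7% of all genes were (2130), and 1 (Agpat2) in DESeq2, which called 809 genes. For etomoxir it was 0 members in edgeR, where 0% of all genes were called, 1 at an unadjusted p under 0.05, where 2.4% of all genes were (307), and 0 in DESeq2, which called 9 genes. The responses with triacsin C and with etomoxir differed for 0 members in edgeR, where 2.29% of all genes were called (293), for 1 at an unadjusted p under 0.05, where 12.5% of all genes were (1596), and for 1 (Lpin2) in DESeq2, which called 656 genes. A missed threshold does not show that the responses were alike, and 9 of the 10 members had a value below 0 in the difference for triacsin C, with a median of -0.55 beside -0.04 for all genes. With the trends removed 8 of the 10 were below 0. In the difference for etomoxir 10 of the 10 were below 0, with a median of -0.38 beside 0. All 10 values in each difference use the same vehicle and SR-3420 samples.

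Markers moved along with these results, and for the called genes of lists named here and below, except Prdm16 in TC+SR-3420 against TC, all samples of the treated group lay beyond all samples of its control in the direction given. The brown adipocyte list of 12 genes summed to 12400 and 11900 CPM in vehicle, 8880 and 8810 in SR-3420, 13300, 13800 and 14000 in TC, 5040, 5220 and 5750 in TC+SR-3420, 12000, 11400 and 13200 in ETO, and 6170, 4940 and 8490 in ETO+SR-3420. Each SR-3420 group was below its control in every sample. Without Fabp4 the list summed to 5920 and 4560 CPM in vehicle and 4620 and 3520 in SR-3420, which overlapped. In both inhibitor arms the SR-3420 samples stayed below their control without Fabp4. With triacsin C, SR-3420 called 4 of 11 tested genes of the list lower, where 19.7% of all genes were, and 2 higher, where 17.3% were. The lower ones included the secreted adipokine Adipoq at a log2 fold change of -1.68 ± 0.21 (edgeR adjusted p = 6.23e-05). They also included the droplet coat protein Plin1 at -1.48 ± 0.31 (edgeR adjusted p = 0.00216) and Fabp4 at -1.33 ± 0.23 (edgeR adjusted p = 0.000575). The 2 higher were genes of brown adipocyte identity, Ebf2 at 0.97 ± 0.29 (edgeR adjusted p = 0.0195) and Prdm16 at 0.74 ± 0.26 (edgeR adjusted p = 0.0431, with overlapping samples), and each of the 6 fits without 1 sample called 1 higher and 3 lower. In TC against vehicle the sum was higher in all 3 samples. Without Fabp4 it was 4750, 5730 and 4770 CPM in TC and overlapped vehicle. In the same comparison 4 of 11 genes were called lower and none higher. These were Prdm16 at -2.14 ± 0.29 (edgeR adjusted p = 0.000255), Pparg at -1.48 ± 0.19 (edgeR adjusted p = 0.000182), Ebf2 at -1.13 ± 0.32 (edgeR adjusted p = 0.036) and Ppargc1a at -1.04 ± 0.26 (edgeR adjusted p = 0.0196), and the count was 2 without vehicle replicate 2, vehicle replicate 3, TC replicate 1 or TC replicate 2. SR-3420 alone called 1 lower, Pparg, and none without any 1 of its 4 samples. With etomoxir 4 were lower, Adipoq at -1.24 ± 0.21, Pparg at -0.79 ± 0.17, Fabp4 at -0.85 ± 0.22 and Plin1 at -0.9 ± 0.3 (edgeR adjusted p = 0.000922, 0.0046, 0.0142 and 0.0441), and 2 without ETO+SR-3420 replicate 2. At most 1 of the 12 genes was at 0 in a sample. This was the thermogenic gene Dio2, which was not tested and reached at most 0.127 CPM, in SR-3420. Of all genes, 6.94% were called lower and 4.77% higher in TC against vehicle, 2.79% lower with SR-3420 alone and 12.8% lower with etomoxir.

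The preadipocyte or fibroblast list of 9 genes, led by Col1a1 in every sample and with no gene at 0, summed to 2630 and 2380 CPM in vehicle, 5550 and 4240 in SR-3420, 3780, 3230 and 2910 in TC, 6460, 5520 and 4640 in TC+SR-3420, 3190, 2380 and 1680 in ETO, and 6650, 5080 and 3570 in ETO+SR-3420. Each SR-3420 group was above its control in every sample. SR-3420 called 1 of the 9 higher alone, the collagen gene Col1a2, and this count was 0 whichever of the 4 samples was left out. Alone, 4.75% of all genes were called higher. With triacsin C, where 17.3% of all genes were, SR-3420 called 4 of the 9 higher. Without TC replicate 3 or TC+SR-3420 replicate 1 it called 2. With etomoxir, where 12.5% of all genes were, it called 6. That count was 4 without ETO replicate 2, ETO replicate 3 or ETO+SR-3420 replicate 2, and 3 without ETO+SR-3420 replicate 1. Col1a2 had 0.78 ± 0.19 on the log2 scale with triacsin C (edgeR adjusted p = 0.00588) and 1.1 ± 0.19 with etomoxir (edgeR adjusted p = 0.0011).

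The stress list of 8 genes, led by Hspa5 or Hmox1 and with no gene at 0, summed to 1930 and 1750 CPM in vehicle, 4990 and 4560 in SR-3420, 5140, 5500 and 5140 in TC, 10500, 11100 and 11100 in TC+SR-3420, 2870, 2620 and 2550 in ETO, and 5160, 5790 and 4770 in ETO+SR-3420. The sums were highest in TC+SR-3420, the group with the lowest mean of 8 members. SR-3420 called 8 of 8 stress genes higher alone, 8 of 8 with triacsin C and 7 of 8 with etomoxir, and triacsin C alone called 3. In that order 4.75%, 17.3%, 12.5% and 4.77% of all genes were called higher. The stress transcription factor Atf3 had log2 fold changes of 3.64 ± 0.18 alone, 2.2 ± 0.14 with triacsin C and 3.34 ± 0.15 with etomoxir (edgeR adjusted p = 3.48e-07, 5.17e-07 and 5.88e-08). The part of these adipocyte, preadipocyte and stress genes in the members' changes was not tested.

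**Figure D4:**
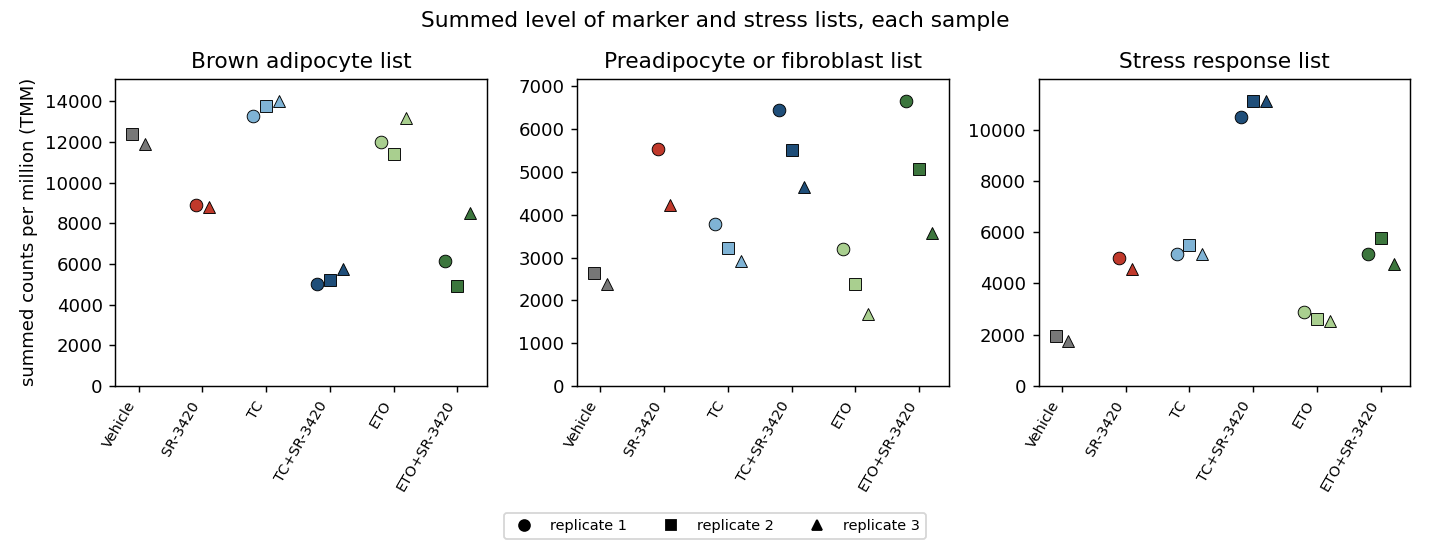
Summed CPM of the marker lists in each of the 16 samples, with the 6 groups on the horizontal axis and summed CPM on the vertical axis. The brown adipocyte sum lies between 5040 and 5750 CPM in TC+SR-3420, below every TC sample, and the stress sum is highest there, at 10500 to 11100 CPM.

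The make-up of the counts per kilobase among the members of 1 family also differed between groups, given without a test as a percent of the sum over the listed members. The sums cover 2 GPAT, 3 AGPAT, 3 lipin and 2 DGAT genes and leave out Agpat6, with group means of 182 to 205 CPM, Agpat5, with 51.2 to 72.9, and Agpat4, so they are not shares of whole families. Agpat9 made up 31.5% ± 4.53 (SD, n = 2) of the listed GPAT sum in vehicle and 52.3% ± 4.81 (n = 2) in SR-3420. It made up 42.2% ± 2.3 (n = 3) in TC and 58.8% ± 7.09 (n = 3) in TC+SR-3420, and 50% ± 7.65 (n = 3) in ETO and 63.4% ± 6.95 (n = 3) in ETO+SR-3420. Its share was higher with SR-3420 in the arms without inhibitor and with TC, with no overlap, while ETO and ETO+SR-3420 overlapped at 42.3% to 57.6% and 56% to 69.8%. Agpat2 made up 64.1% ± 1.55 (n = 3) of the listed AGPAT sum in TC and 48.2% ± 1.82 (n = 3) in TC+SR-3420, where Agpat1 went from 11.3% ± 0.265 to 21.7% ± 0.2. Those groups did not overlap. With etomoxir Agpat1 went from 11.5% ± 0.551 (n = 3) to 17.2% ± 3.84 (n = 3), also with no overlap, and Agpat2 from 61.3% ± 2.85 to 56% ± 4.82, with overlap. In vehicle and SR-3420 Agpat2 stood at 63.3% ± 1.7 (n = 2) and 66.1% ± 3.82 (n = 2) and Agpat1 at 11.4% ± 0.636 and 11.8% ± 1.41, and both overlapped. Lpin2 made up 10.5% ± 1.22 (n = 3) of the lipin sum in TC and 23.3% ± 2.74 (n = 3) in TC+SR-3420, and 13.1% ± 2.17 (n = 3) in ETO and 17.9% ± 4.11 (n = 3) in ETO+SR-3420. It made up 10% ± 2.09 (n = 2) in vehicle and 11.7% ± 2.12 (n = 2) in SR-3420. The triacsin C pair did not overlap, and the others did. Dgat2 made up 47% ± 0.212 (n = 2) of the DGAT sum in vehicle, 40% ± 0.778 (n = 2) in SR-3420 and 32.3% ± 1.67 (n = 3) in TC, and these 3 groups did not overlap. It was 38.6% ± 1.22 (n = 3) in TC+SR-3420, above every TC sample. It was 42.8% ± 2.92 (n = 3) in ETO and 37.2% ± 2.44 (n = 3) in ETO+SR-3420, with no overlap, so it was lower with SR-3420 there as in the arm without inhibitor. Differences between the arms in these shares were not tested.

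**Figure D5:**
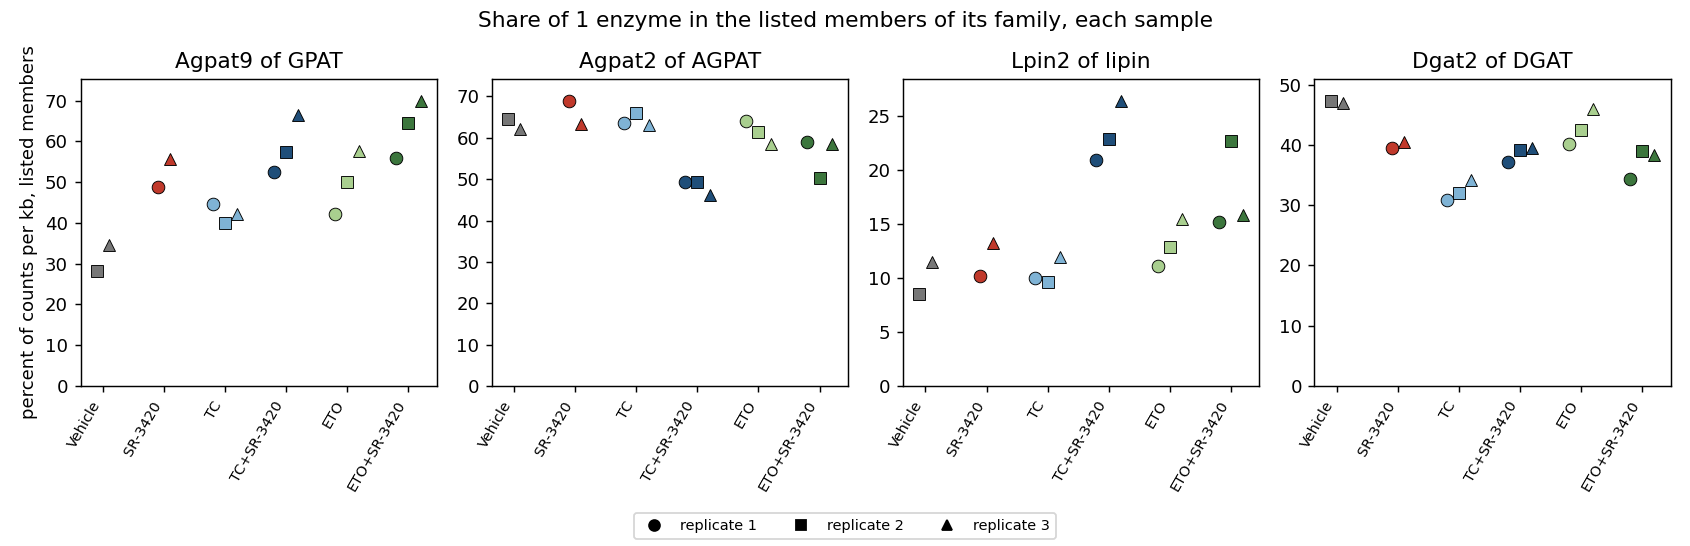
Share of single members in the summed CPM per kilobase of the listed members of their family in each sample, in percent on the vertical axis and with the 6 groups on the horizontal axis. The Agpat9 share of the listed GPAT sum is 31.5% on average in vehicle and 63.4% in ETO+SR-3420.

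Gpam and Agpat2 had the widest ranges of group means, 2.18 and 1.9 on the log2 scale. Over the 16 samples, which share group structure and the trend with GC content, the genes most like Gpam by Pearson's r were Casp9 (0.979), Aco1 (0.974), Epas1 (0.974), Hcar1 (0.972) and A530016L24Rik (0.97). The genes most like Agpat2 were the hormone-sensitive lipase gene Lipe (0.99), Agpat3 (0.987), Slc5a6 (0.976), Aifm2 (0.976) and Abcb9 (0.975). These values are a description of the patterns across samples.

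Of 7 other acyltransferase genes, not all of them in the glycerol phosphate pathway, 5 were tested. SR-3420 called none of them lower, where 2.79% of all genes were alone, 19.7% with triacsin C and 12.8% with etomoxir. It called 1 higher alone, where 4.75% of all genes were, 2 with triacsin C, where 17.3% were, and 1 with etomoxir, where 12.5% were. The count alone was 0 without vehicle replicate 3, and that with triacsin C was 1 in 5 of the 6 fits without 1 sample, all but the fit without TC+SR-3420 replicate 1. Agpat4, an AGPAT family gene outside the 10 members, averaged 14 ± 1.97 CPM (SD) in vehicle and 33.9 ± 3.63 in SR-3420, 18.8 ± 2.03 in TC and 44.7 ± 4.41 in TC+SR-3420, and 15.1 ± 3.21 in ETO and 35.3 ± 7.07 in ETO+SR-3420. It rose with SR-3420 alone by 1.27 ± 0.23 on the log2 scale (edgeR adjusted p = 0.00509, called in 3 of the 4 fits without 1 sample), with triacsin C present by 1.25 ± 0.19 (edgeR adjusted p = 0.000225) and with etomoxir present by 1.22 ± 0.19 (edgeR adjusted p = 0.000514), with no overlap between the samples. Agpat6, now named Gpat4, was not called, at log2 fold changes with SR-3420 of 0.01 in the arm without inhibitor, -0.13 in the triacsin C arm and -0.01 in the etomoxir arm (edgeR adjusted p = 0.989, 0.425 and 0.966), with overlapping samples in the first and last of these and all 3 samples lower in the triacsin C arm.

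Of 7 genes of glycerol 3-phosphate metabolism and glycerol transport, not all of which supply glycerol 3-phosphate, SR-3420 called 1 lower alone, where 2.79% of all genes were. It called 4 lower with triacsin C, where 19.7% of all genes were, and 4 with etomoxir, where 12.8% were. None was called higher, where 4.75%, 17.3% and 12.5% of all genes were. In each arm 2 of the 7 had a log2 fold change above 0. Among them Pck1, not called, had 153 to 221 CPM in vehicle and 349 to 423 in SR-3420. It had 171 to 193 CPM in TC and 221 to 266 in TC+SR-3420, and overlapped at 225 to 304 in ETO and 189 to 421 in ETO+SR-3420. The medians of the 7 were -0.2, -0.53 and -0.48, beside 0, 0.02 and 0.01 for all genes. The 1 gene lower alone was Gpd1l, a relative of Gpd1, and the count was 0 whichever of the 4 samples was left out. Gpd1, which makes glycerol 3-phosphate from a glycolytic intermediate, fell by -1.6 ± 0.18 on the log2 scale with triacsin C (edgeR adjusted p = 3.04e-05), from 3990 ± 250 CPM (SD, n = 3) in TC to 1310 ± 72.6 (n = 3), and by -0.76 ± 0.18 with etomoxir (edgeR adjusted p = 0.00758). The glycerol channel gene Aqp7 fell by -1.63 ± 0.22 (edgeR adjusted p = 9.95e-05) with triacsin C and -0.9 ± 0.21 with etomoxir (edgeR adjusted p = 0.00768).

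The phospholipid branch draws on phosphatidate and diacylglycerol. Among 17 of its genes SR-3420 called 1 higher and 1 lower alone, where 4.75% and 2.79% of all genes were. With triacsin C, where 17.3% of all genes were called higher and 19.7% lower, it called 3 of the 17 higher and 4 lower. With etomoxir, where 12.5% and 12.8% of all genes were, it called 2 of the 17 higher and 3 lower. Their medians were 0.13, 0.06 and -0.04, and the 1 lower alone, Cds2, was kept only without SR-3420 replicate 3. Chka, a choline kinase, rose by 1.45 ± 0.2 on the log2 scale alone (edgeR adjusted p = 0.000815), 1.38 ± 0.16 with triacsin C (edgeR adjusted p = 3.54e-05) and 1.53 ± 0.16 with etomoxir (edgeR adjusted p = 3.42e-05). Chpt1, which makes phosphatidylcholine from diacylglycerol, fell by -1.51 ± 0.18 with triacsin C (edgeR adjusted p = 4.55e-05) and -1.03 ± 0.18 with etomoxir (edgeR adjusted p = 0.00116).

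Of 15 regulators of lipin and of the pathway 14 were tested. SR-3420 called none of them higher, where 4.75% of all genes were alone, 17.3% with triacsin C and 12.5% with etomoxir. It called 1 lower alone, where 2.79% of all genes were, 6 with triacsin C, where 19.7% were, and 3 with etomoxir, where 12.8% were. The medians of the 14 were -0.06, -0.44 and -0.27, beside 0, 0.02 and 0.01 for all genes. The 1 lower alone was Pparg, lost without any 1 of the 4 samples, and with triacsin C the count was 4 without TC replicate 2 or TC+SR-3420 replicate 2 or 3. Fitm2, a droplet biogenesis gene, fell by -1.63 ± 0.18 on the log2 scale with triacsin C (edgeR adjusted p = 2.7e-05) and -0.97 ± 0.18 with etomoxir (edgeR adjusted p = 0.00181). Bscl2, the seipin gene, fell by -1.42 ± 0.19 with triacsin C (edgeR adjusted p = 0.000112) and -1.07 ± 0.19 with etomoxir (edgeR adjusted p = 0.00148). The adipogenic receptor gene Pparg fell by -1.48 ± 0.19 with triacsin C alone against vehicle (edgeR adjusted p = 0.000182), from 329 ± 27.8 CPM (SD, n = 2) to 118 ± 4.13 (n = 3).

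Of 7 genes of triglyceride breakdown, SR-3420 called 1 higher and 1 lower alone, where 4.75% and 2.79% of all genes were. With triacsin C, where 17.3% of all genes were called higher and 19.7% lower, it called 1 of the 7 higher and 5 lower. With etomoxir, where 12.5% and 12.8% of all genes were, it called 1 of the 7 higher and 3 lower. The medians of the 7 were -0.16, -0.82 and -0.55, beside 0, 0.02 and 0.01 for all genes. With etomoxir 2 of the 7 were lower without ETO replicate 2 or ETO+SR-3420 replicate 2. The one higher was Hilpda, an inhibitor of adipose triglyceride lipase, which rose by 2.73 ± 0.2 on the log2 scale alone (edgeR adjusted p = 7.58e-06), 2 ± 0.16 with triacsin C (edgeR adjusted p = 3.07e-06) and 3.27 ± 0.17 with etomoxir (edgeR adjusted p = 1.58e-07). Pnpla3 fell by -1.34 ± 0.24 alone (edgeR adjusted p = 0.00416), -2.35 ± 0.2 with triacsin C (edgeR adjusted p = 4.6e-06) and -1.56 ± 0.19 with etomoxir (edgeR adjusted p = 0.000118).

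RefSeq promoters of 300 bases were matched for 8 of the 10 members, 13 promoters of 32851 in the table, and Dgat1 and Dgat2 were not among those matched. Both strands were searched for the E-box CACGTG, the sterol element TCACNCCAC, the cyclic AMP element TGACGTCA, the ATF4 element TGATGNAA and DR1, a direct repeat of AGGTCA with 1 base between, and no set of letters contains another. Of the 13 promoters 4 held a match. These were the ATF4 element in Gpam promoter 1, the E-box in Lpin2 promoter 1, an ATF4 element at -194 in Lpin2 promoter 3 and an E-box at 23 in Lpin3 promoter 1. Of these only the last is at the start of its counted gene. The 1 promoter of Lpin1 starts 21196 bases upstream of the counted gene. Of all promoters 7.15% held the E-box, 3.97% the ATF4 element, 1.79% the cyclic AMP element, 1.24% the sterol element and 0.0396% DR1. A match describes letters, and the absence of one says only that they are not in the window. Agpat2, which fell most in TC+SR-3420 against TC, had no match in its promoter at chr2:26604368-26604667, minus strand, build GRCm38.p6.
Agpat2 promoter 1: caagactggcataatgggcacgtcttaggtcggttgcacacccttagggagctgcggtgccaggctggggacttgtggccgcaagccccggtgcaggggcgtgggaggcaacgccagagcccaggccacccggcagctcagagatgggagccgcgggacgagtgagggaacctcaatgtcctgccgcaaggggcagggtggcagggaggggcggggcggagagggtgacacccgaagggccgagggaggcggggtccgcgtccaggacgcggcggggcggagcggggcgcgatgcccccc

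These are RNA levels in 16 bulk samples of a cell line at 3 h, and they hold no enzyme amounts, activities or lipids. The study measured fatty acid release into the medium under these treatments, which was not used here. The arm without inhibitor had 2 samples per group, so its intervals are wider than those of the inhibitor arms, and every difference between a response with an inhibitor and that without rests on those 4 samples. Samples of a group differed along a trend with GC content whose source the labels do not give. Removing the trends over GC content and length, within and between groups, ended 1 call of a member and added 12. For those 12 the edgeR adjusted p with the trends in place ran from 0.0562 to 0.3. The count of all genes called rose in every comparison in the same fit, from 3234 to 5701 in ETO+SR-3420 against ETO. The comparisons share groups, the members share a pathway, and neither were treated as independent.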

How the data were processed

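The authors aligned the reads to mm9 with STAR 2.4.2a, used HOMER with 1 read allowed for each position and read length, counted reads per gene and deposited the whole-number counts without normalization. Read lengths were not available, so that limit could not be checked in the counts, of which 1084 genes exceeded 2 per counted base in a sample and Cfd reached 331. Library totals are given in the report. Here, counts of all 16 samples and 6 groups were fitted in 1 model with edgeR 4.0.16 in R 4.3.3 (TMM scaling, filterByExpr, quasi-likelihood test), with p adjusted by Benjamini-Hochberg across 12786 genes and a threshold of 0.05. Confidence intervals of 95% used 13.3 total degrees of freedom. Levels are CPM on TMM-scaled totals. GC content was known for 93.5% of the genes tested.

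The members and lists were chosen with earlier results of these data known. All 10 members are named. From each other list, at most 3 called genes per direction and comparison may be named, those with the largest change whose mean normalized count reached 50, and all genes of lists of 8 or fewer may be named. The genes most like a member are the 5 with the highest Pearson r. Alternatives were DESeq2 1.42.0 (Wald test), its size factors in edgeR, no filter, only the groups compared, the replicate number as a block and leaving out each sample in turn. Removal of trends over GC content and length was chosen after seeing the data. It used spline offsets with 5 degrees of freedom each, fitted to each sample's deviation from the mean of all 16 samples. The functions were tested on simulated data.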

Additional observations from a re-analysis of the deposited data

How the results depend on the processing

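The count of members called changed with the setting as follows, with the count of all genes called in brackets, and the cause was not tested. In a model of only the groups compared, SR-3420 against vehicle called 0 members (46) instead of 1 (964), and TC+SR-3420 against SR-3420 called 2 (78) instead of 6 (585). DESeq2 called 4 (3816) instead of 2 (3234) in ETO+SR-3420 against ETO, 1 (86) instead of 0 (1) in ETO+SR-3420 against SR-3420, 1 (809) instead of 0 (321) in the response with triacsin C against that without inhibitor, and 1 (656) instead of 0 (293) in the response with triacsin C against that with etomoxir. With the replicate block these 4 counts were 6 (5776), 6 (1838), 3 (1669) and 1 (1055), and TC+SR-3420 against SR-3420 called 8 (3008). With the trends over GC content and length removed, which was chosen after seeing the data, SR-3420 against vehicle called 2 (2894), ETO+SR-3420 against ETO 6 (5701), ETO+SR-3420 against SR-3420 2 (95) and the response with triacsin C against that without inhibitor 3 (1049), while TC+SR-3420 against SR-3420 called 8 (2259) and TC+SR-3420 against TC 6 (6539) instead of 7 (4722). With both the trends removed and the replicate block the counts were 2 (4091), 7 (7138), 6 (1658) and 4 (2027) in that order of the first 4, 8 (3909) for TC+SR-3420 against SR-3420, 3 (4185) instead of 2 (1497) for TC against vehicle, 1 (79) for ETO against vehicle and 1 (1695) for triacsin C against etomoxir. With both, Agpat1 in TC against vehicle also turned from a log2 fold change of 0.04 to -0.19 and passed, the 1 change of sign in a member that came with a call. Leaving out 1 sample gave 0 to 0 members for SR-3420 against vehicle, 6 to 7 for TC+SR-3420 against TC, 2 to 4 for ETO+SR-3420 against ETO, 1 to 2 for TC against vehicle and 1 to 5 for TC+SR-3420 against SR-3420. A group left with 1 sample was assumed to vary like the other groups. DESeq2's size factors and the fit without a filter each called 5 (571 and 470) instead of 6 members in TC+SR-3420 against SR-3420, losing Agpat9, and changed no other count of members.

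The replicate numbers were not taken to pair the samples, because the labels do not say what a number marks and not every pair with the same number deviated together. Of 35 pairs with the same number, 27 had deviations from their group means that correlated above 0.1 (mean r = 0.49, from -0.35 to 0.9), beside a mean of -0.24 in 71 pairs with different numbers, and 11 of 16 samples correlated best with their own number, a hint from the data and not the design. Deviations within a group cancel out, so the contrast between these means is partly built in. The members gained with the replicate block in ETO+SR-3420 against ETO were Agpat9, Agpat2, Agpat3 and Lpin1.

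Counts of all genes called moved by more than 1.5 times in 7 of 10 comparisons with DESeq2, 10 of 10 with the replicate block, 9 of 10 with the trends removed and 10 of 10 with both, always upwards. They moved downwards by that much in 5 of 10 with only the groups compared and in 2 of 10 without a filter, and in 0 of 10 with DESeq2's size factors. For SR-3420 against vehicle the count was 964, and 1569 in DESeq2. Of 60 group levels, 58 moved by less than 1 SD with DESeq2's size factors. Depth limits Lpin3 most, with as few as 107 counts in a sample.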
